A study of Mus musculus with 2 samples.

Results

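The Sox genes encode transcription factors that bind DNA through a high-mobility-group (HMG) box related to that of the sex-determining gene *Sry*. *Sox2*, *Sox21*, *Sox4*, *Sox11*, *Sox6*, *Sox8*, *Sox9*, *Sox10*, *Sox17* and *Sox18*, 10 of the 32285 genes in the count tables, were picked by symbol and followed across the cell classes of the adult mouse striatum, and all 10 were measured. The striatum is the large forebrain nucleus that receives cortical input, and its lateral ventricle border holds a niche in which neuroblasts are born in adults. Cells came from 2 single-cell libraries, replicates 1 and 2 of 1 condition, prepared from untreated mice and processed on the 10x Genomics droplet platform. There was no treated group, so the comparisons were between cell classes of the same suspensions.

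The labels gave an age of 8 to 10 weeks for both libraries, a little above the range in the study's methods, and the strain C57/Bl6J, whereas the preparation text of the same samples named C57BL/6NTac mice. Mice carried no transgene or deletion by the labels, and the study's methods described them as male. The labels called the cells glia enriched, after pronase digestion and a kit that removes myelin and debris, so that the shares of the classes are those of a processed suspension. The study's methods gave the total number of mice but not the number behind each library. The p-values rest on how far differences between classes varied between these 2 libraries, after the overall difference between the libraries was taken out. That spread may be technical. The libraries held 6978 and 5437 cell barcodes with 44597660 and 37982720 unique molecular identifiers (UMIs, the tags that count captured RNA molecules once each), a median of 3852 and 5375 UMIs per cell, and shared 9 barcodes. After a minimum of 300 detected genes and removal of 81 and 158 predicted doublets, 12023 cells were analysed.

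Cells were clustered without any Sox gene, and each cluster was named from marker genes, so every class name below means "like" that cell type. The classes were astrocyte-like (2294 cells), oligodendrocyte-like (2219), microglia-like (2149), neuroblast-like (1668), endothelial-like (1402), oligodendrocyte precursor cell (OPC)-like (829), neuron-like (642), mural-like (554, the cells that wrap vessels) and macrophage-like (169). Another 97 cells were erythroid-like, 11 of them in replicate 2, and were left out of the comparisons. Each class had raised at least 2-fold all the markers listed for it, except that 1 of the 2 clusters joined as oligodendrocyte-like raised 4 of 6. That cluster had a median mitochondrial share of 22.3%, and the neuron-like class had 11.2%. Beside glia, the suspensions called glia enriched thus held neuroblast-like, neuron-like, endothelial-like and mural-like cells. Median depth ran from 2008.5 UMIs in astrocyte-like to 11910 in oligodendrocyte-like cells. At a finer resolution, described below, the neuroblast-like class included 446 cycling progenitor-like and 152 ependymal-like cells. The OPC-like class included 186 committed precursor-like cells. The macrophage-like class included 39 lymphocyte-like cells, and the mural-like class 56 fibroblast-like cells and a mixed cluster described below. Of the astrocyte-like cells, 107 were named neuron-like at that resolution. Values of all these classes are thus those of mixtures.

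Sox proteins are sorted into groups by their HMG box. *Sox2* (group B1) keeps neural stem and progenitor cells undifferentiated, and *Sox21* (B2) lacks its activating function and acts against it. *Sox4* and *Sox11* (group C) are activators of newborn neurons. *Sox6* (group D) has no activating domain of its own and restrains the maturation of oligodendrocyte precursors. In group E, *Sox9* starts gliogenesis and stays on in astrocytes, *Sox10* is required for myelin gene expression in oligodendrocytes, and *Sox8* overlaps with both. *Sox17* and *Sox18* (group F) act in endothelial cells and in the formation of arteries and lymph vessels. Sox proteins bind weakly alone and act with partner factors, such as *Pou3f2* beside *Sox2* or *Olig2* and *Myrf* beside *Sox10*.

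The stretch of the HMG box that begins at its conserved start shows how closely the members resemble each other. It is printed for each gene over 60 coding bases on the strand of the gene, from the GENCODE M21 transcripts of GRCm38, with capitals at the bases that differ from *Sox2*.
*Sox2* (chr3:34650548-34650607, plus strand, its 1 exon): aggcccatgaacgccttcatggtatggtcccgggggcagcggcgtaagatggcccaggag
*Sox21* (chr14:118235549-118235608, minus strand, its 1 exon): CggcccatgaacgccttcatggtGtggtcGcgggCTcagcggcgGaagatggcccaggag
*Sox4* (chr13:28952782-28952841, minus strand, its 1 exon): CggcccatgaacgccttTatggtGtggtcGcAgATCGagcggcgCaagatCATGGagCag
*Sox11* (chr12:27342199-27342258, minus strand, its 1 exon): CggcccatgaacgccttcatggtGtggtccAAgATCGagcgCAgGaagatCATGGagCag
*Sox6* (chr7:115489703-115489762, minus strand, exon 15 of 17): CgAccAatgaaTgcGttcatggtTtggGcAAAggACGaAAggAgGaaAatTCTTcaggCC
*Sox8* (chr17:25570163-25570222, minus strand, exon 1 of 3): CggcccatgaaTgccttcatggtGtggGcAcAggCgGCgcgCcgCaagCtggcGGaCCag
*Sox9* (chr11:112782903-112782962, plus strand, exon 1 of 3): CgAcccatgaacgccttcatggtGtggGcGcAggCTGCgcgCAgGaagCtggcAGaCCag
*Sox10* (chr15:79163342-79163401, minus strand, exon 2 of 4): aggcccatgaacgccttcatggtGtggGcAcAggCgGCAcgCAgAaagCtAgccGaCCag
*Sox17* (chr1:4493140-4493199, minus strand, exon 4 of 5): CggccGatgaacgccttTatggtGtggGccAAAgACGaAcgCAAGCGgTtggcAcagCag
*Sox18* (chr2:181671222-181671281, minus strand, exon 1 of 2): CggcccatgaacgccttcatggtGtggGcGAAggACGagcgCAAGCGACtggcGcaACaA
*Sox21* differed from *Sox2* at 6 of these 60 bases, *Sox4*, *Sox8* and *Sox10* at 16 each, *Sox11* at 17, *Sox9* at 18, *Sox17* and *Sox18* at 21 each and *Sox6* at 24. In these libraries reads were taken at the 3′ end of transcripts, so likeness in the HMG box has no direct bearing on which gene a read was given to. *Sox2* lies wholly within the non-coding gene *Sox2ot* on the same strand (2057 bases), so that reads over *Sox2* could be split between both by the counting, and its level carries that uncertainty.

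Levels are given as CPM, the UMIs of a gene per 1000000 UMIs of all genes, summed over the cells of a class in 1 library. Ranges in parentheses are exact Poisson 95% intervals of a CPM, or exact binomial ones of a share, and cover counting error only. Differences are log2 changes from a quasi-likelihood fit in edgeR to these sums, blocked by library, on the scale of TMM (trimmed mean of M-values) normalization, with the standard error (SE, from the change and its test statistic) and the p adjusted by Benjamini-Hochberg over all 15539 genes tested. TMM raised the level of the oligodendrocyte-like sums, with factors of 0.738 and 0.723, and lowered that of the OPC-like sums, with 1.24 and 1.32. The 10 most abundant genes took 19.9% and 19.8% of all UMIs in the oligodendrocyte-like sums and 9.00% and 9.39% in the OPC-like sums. The microglia-like sums had factors of 0.765 and 0.794. Ratios of CPM and fitted folds therefore differ wherever the factors of 2 classes are unlike, as with the oligodendrocyte-like class. Both are given for some of these steps, and every fold without a named scale is a fitted one. In sums of this kind, fewer cells with the RNA and less RNA per cell cannot be told apart, and the share of cells with a UMI stands beside the levels for that reason.

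**Figure D1:**
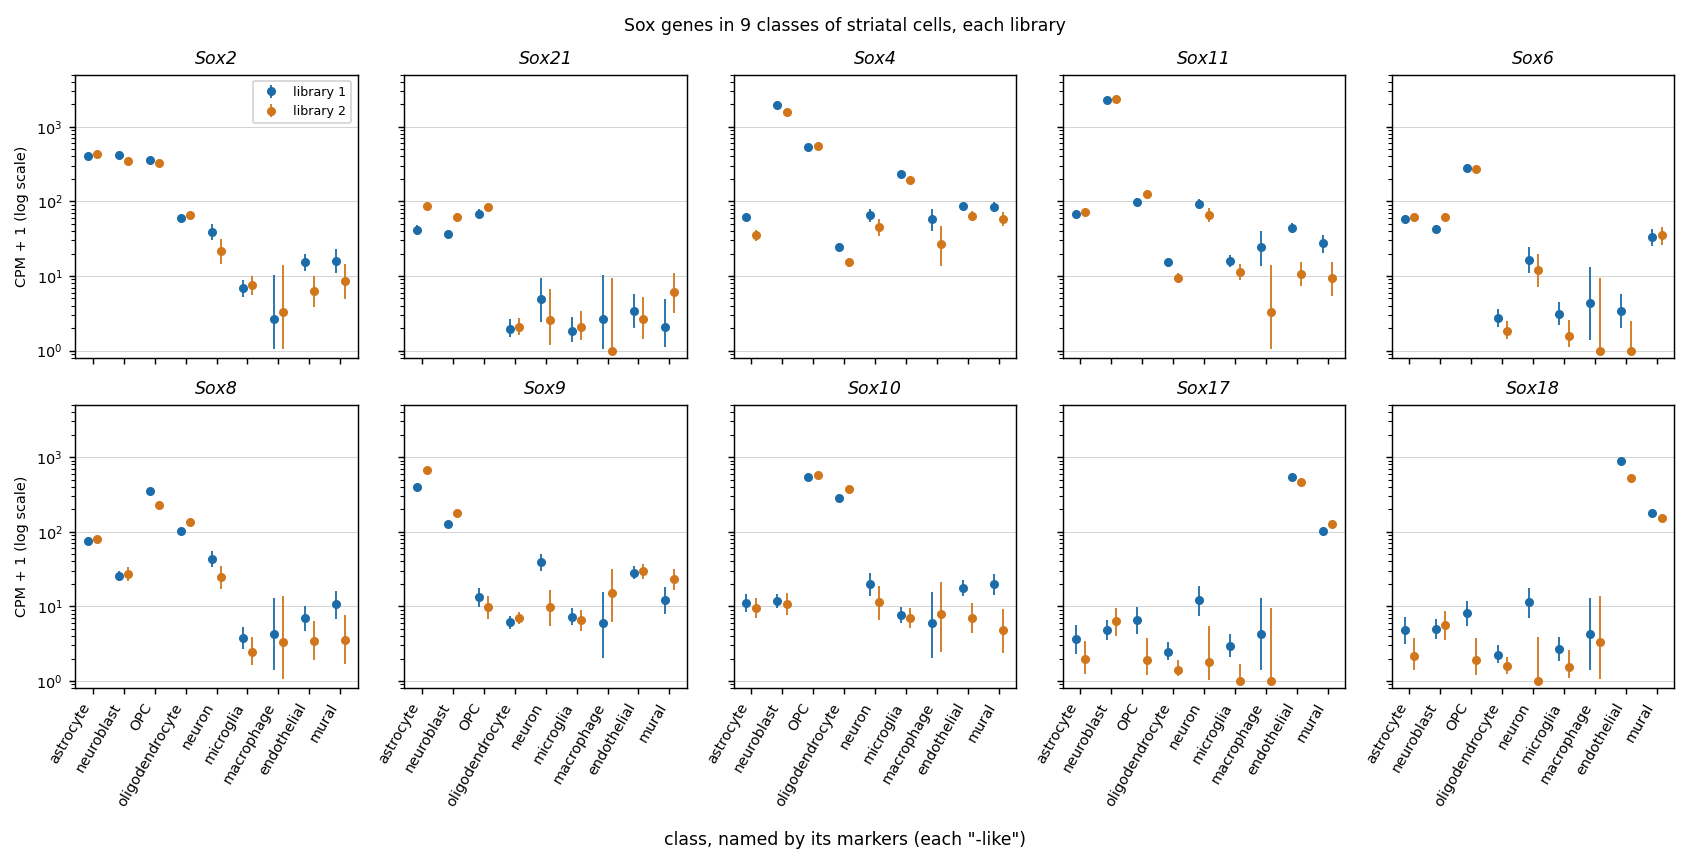
Level of each Sox gene in 9 cell classes. The y axis is CPM + 1 on a log scale, the x axis the class, and each point 1 library (blue replicate 1, orange replicate 2) with the exact Poisson 95% interval of its count. *Sox17* and *Sox18* stand highest in the endothelial-like class, *Sox4* and *Sox11* in the neuroblast-like class, *Sox9* in the astrocyte-like class and *Sox10* in the OPC-like and oligodendrocyte-like classes.

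*Sox2* was high in 3 classes, the astrocyte-like, neuroblast-like and OPC-like. Its CPM was 408 (389 to 428) and 436 (416 to 456) in the astrocyte-like class of replicates 1 and 2, 418 and 343 in the neuroblast-like class, and 353 and 328 in the OPC-like class. The libraries of the astrocyte-like and neuroblast-like classes overlapped, and neither that step of the order (log2 0.30, SE 0.213, adjusted p = 0.260) nor the next, neuroblast-like over OPC-like (log2 0.34, SE 0.215, adjusted p = 0.211), passed the test. Astrocyte-like cells were above OPC-like cells (log2 0.64, SE 0.215, adjusted p = 0.0233), a call that did not hold with DESeq2, without TMM or without the library block (adjusted p up to 0.229 over the alternatives).

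Below these 3 classes *Sox2* fell in steps. Oligodendrocyte-like cells held 58.2 and 65.3 CPM, 3.11-fold below OPC-like cells on the fitted scale and 5.52-fold by mean CPM (log2 difference of OPC-like over oligodendrocyte-like cells 1.64, SE 0.221, adjusted p = 8.72e-06). Neuron-like cells held 38.4 and 20.8 CPM, 3.50-fold lower again on the fitted scale and 2.09-fold by mean CPM (adjusted p = 2.07e-05). Microglia-like cells, which should lack the gene, held 5.87 and 6.58 CPM. With every cell thinned to 1000 UMIs, a *Sox2* UMI was found in 28.5% (25.7 to 31.5) and 29.1% (26.1 to 32.3) of astrocyte-like cells, against 1.27% and 0.620% of microglia-like cells, whose median depths before thinning were 6930 and 5502 UMIs. Without thinning the shares were 44.9% and 57.6% at median depths of 1737 and 2781.5 UMIs in astrocyte-like cells, and 3.64% and 3.22% in microglia-like cells.

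*Sox21*, the counterpart of *Sox2*, was highest in the same 3 classes. It was at 67.2 and 83.3 CPM in OPC-like, 40.6 and 86.6 CPM in astrocyte-like and 35.5 and 60.2 CPM in the neuroblast-like cells. Libraries of neighbouring classes in this order overlapped, and neither OPC-like over astrocyte-like cells (log2 -0.02, SE 0.281, adjusted p = 0.985) nor astrocyte-like over neuroblast-like cells (log2 0.53, SE 0.231, adjusted p = 0.0650) passed the test. In all 3 classes replicate 2 was the higher library. Within the neuroblast-like class, *Sox21* was at 51.8 and 69.4 CPM in cycling progenitor-like cells. It was at 9.23 and 9.20 CPM in the cells that were neither cycling nor ependymal-like. OPC-like cells without the committed precursor-like ones held 93.4 and 102 CPM. The next class in the order, mural-like, stood 13.02-fold lower than the neuroblast-like class (3.10 CPM, mean of the 2 libraries, adjusted p = 8.14e-07), and the remaining classes lay between 0.833 and 2.75 CPM on average. Oligodendrocyte-like cells held 0.965 and 1.06 CPM of *Sox21* and microglia-like cells 0.839 and 1.10 CPM (adjusted p = 0.853), although *Sox2* was higher in oligodendrocyte-like than in microglia-like cells in both libraries.

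The group C genes marked the neuroblast-like class. *Sox11* was at 2293 (2258 to 2328) and 2353 (2298 to 2408) CPM there, and the next class, OPC-like, was at 98.2 and 124 CPM. That difference was 23.5-fold (log2 4.56, SE 0.394, adjusted p = 9.58e-08), and the libraries lay far apart. Without the committed precursor-like cells, OPC-like cells held 141 and 166 CPM of *Sox11*. OPC-like, neuron-like (91.7 and 65.5 CPM) and astrocyte-like cells (67.1 and 71.6 CPM) followed each other in the order with no step that passed the test (adjusted p = 0.315 and 0.806). At 1000 UMIs, 73.6% and 73.1% of neuroblast-like cells had a *Sox11* UMI, against 1.27% and 0.724% of microglia-like cells.

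*Sox4* was at 1948 (1916 to 1980.3) and 1550.4 (1506 to 1595) CPM in the neuroblast-like class and was more widespread than *Sox11*. OPC-like cells held 535 and 554 CPM, 3.59-fold lower than neuroblast-like cells (log2 1.85, SE 0.170, adjusted p = 1.94e-07). Of that OPC-like class, the committed precursor-like cells held 840.0 and 939 CPM and the other cells 329 and 388 CPM. Microglia-like cells came next with 234 (223 to 246) and 193 (181 to 205) CPM, well above the level that the other members had in this immune class. They stood 3.65-fold above endothelial-like cells on the fitted scale and 2.89-fold by mean CPM (log2 1.87, SE 0.179, adjusted p = 1.56e-07). Endothelial-like cells held 84.5 and 63.4 CPM. The macrophage-like class, the other immune class, which included 39 lymphocyte-like cells, held 56.7 and 25.5 CPM. At 1000 UMIs a *Sox4* UMI was found in 20.7% (18.2 to 23.3) and 15.5% (13.3 to 17.9) of microglia-like cells, against 2.05% and 1.20% of oligodendrocyte-like cells, whose median depths were 11128 and 12216 UMIs. Oligodendrocyte-like cells were the lowest class, with 23.8 and 14.3 CPM.

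*Sox6* was highest in OPC-like cells and lower in astrocyte-like, neuroblast-like and mural-like cells. OPC-like cells held 282 (264 to 301) and 267 (249.9 to 286) CPM, 3.72-fold above the astrocyte-like cells (57.7 and 59.8 CPM, log2 1.89, SE 0.256, adjusted p = 1.40e-05). Neuroblast-like cells held 42.05 and 60.2 CPM and mural-like cells 32.2 and 33.9 CPM, and no step between these 3 passed the test (adjusted p = 0.274 and 0.151). Mural-like cells were 2.73-fold above neuron-like cells (adjusted p = 0.00656). In endothelial-like cells *Sox6* was at 2.38 CPM in replicate 1 and at 0 of 2461313 UMIs in replicate 2, which allows up to 1.22 CPM. At 1000 UMIs, 24.3% and 25.1% of OPC-like cells and 0.390% and 0.103% of microglia-like cells had a *Sox6* UMI.

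The 3 group E genes divided the glia. *Sox9* stood highest in astrocyte-like cells, with 397 (378 to 417) and 681 (656 to 706) CPM in the 2 libraries. These differed by more than their counting intervals, and both lay above the neuroblast-like cells (128 and 176 CPM), which were 3.89-fold lower (log2 difference of astrocyte-like over neuroblast-like cells 1.96, SE 0.311, adjusted p = 4.68e-05). Within the neuroblast-like class, cycling progenitor-like cells held 136 and 129 CPM of *Sox9*. The cells that were neither cycling nor ependymal-like held 68.7 and 51.8 CPM. Endothelial-like cells held 27.4 and 28.4 CPM, and OPC-like cells 12.4 and 8.71 CPM. At 1000 UMIs a *Sox9* UMI was found in 26.9% and 36.6% of astrocyte-like, 1.31% and 0.482% of OPC-like and 0.195% and 0.517% of microglia-like cells.

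*Sox10* took the opposite place. It was at 539 (514 to 565) and 583 (557 to 610.4) CPM in OPC-like cells and at 282 (273 to 291) and 368 (358 to 378) CPM in oligodendrocyte-like cells. By CPM the OPC-like libraries lay above both oligodendrocyte-like ones, whereas on the TMM scale the means were 438 and 446 and no difference passed the test (log2 -0.04 for OPC-like over oligodendrocyte-like cells, SE 0.258, adjusted p = 0.925). Without TMM the same fit called OPC-like cells higher (log2 0.78, adjusted p = 0.0167), so the order of these classes depended on the scaling. Neuron-like cells, next in the order, were 36.4-fold below oligodendrocyte-like cells on the fitted scale and 22.2-fold by mean CPM (18.9 and 10.4 CPM, adjusted p = 4.25e-09). Astrocyte-like cells held 10.2 and 8.54 CPM and microglia-like cells 6.71 and 6.03 CPM. At 1000 UMIs, 39.4% and 39.3% of OPC-like, 22.3% and 28.5% of oligodendrocyte-like, 1.24% and 1.71% of astrocyte-like and 0.780% and 0.310% of microglia-like cells had a *Sox10* UMI.

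*Sox8* was present on both sides of that divide. OPC-like cells held 346 (326 to 367) and 229 (213 to 246) CPM and oligodendrocyte-like cells 103 and 135 CPM. OPC-like over oligodendrocyte-like cells did not pass the test (log2 0.43, SE 0.245, adjusted p = 0.164) but did without TMM (log2 1.23, adjusted p = 0.000280). Oligodendrocyte-like cells were 2.22-fold above astrocyte-like cells on the fitted scale and 1.57-fold by mean CPM (74.3 and 77.8 CPM, log2 1.15, SE 0.252, adjusted p = 0.000865), and these were 2.74-fold above neuron-like cells (42.3 and 24.0 CPM, adjusted p = 0.000926). At 1000 UMIs, a *Sox8* UMI was found in 25.6% and 18.3% of OPC-like, 8.66% and 12.2% of oligodendrocyte-like, 6.82% and 6.40% of astrocyte-like and 0.487% and 0.620% of microglia-like cells.

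The group F genes were endothelial. *Sox17* was at 533 (509 to 559) and 469 (443 to 497) CPM in endothelial-like cells, and *Sox18* at 886 (855 to 919) and 522 (494 to 552) CPM. Mural-like cells came next, with 101 and 124 CPM of *Sox17* and 176 and 151 CPM of *Sox18*. Endothelial-like cells were above them by a log2 difference of 2.27 for *Sox17* (SE 0.351, adjusted p = 0.000109) and 2.18 for *Sox18* (SE 0.287, adjusted p = 2.15e-05). With DESeq2 the call for *Sox17* was lost (log2 2.06, adjusted p = 0.116). In all other classes neither gene exceeded 11.1 CPM in any library. Microglia-like cells held 14 UMIs of *Sox17* in replicate 1 and 0 of 5473994 UMIs in replicate 2, which allows up to 0.548 CPM. At 1000 UMIs, 33.8% and 38.4% of endothelial-like cells had a *Sox17* UMI and 49.4% and 38.8% a *Sox18* UMI.

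The mural-like levels of *Sox17* and *Sox18* came from a small group of cells. A fine cluster of 65 cells with a median of 15307 UMIs carried mural markers, and its leading genes over the other mural cells included the endothelial genes *Itm2a*, *Pglyrp1*, *Cldn5* and *Ly6a*. It held 352 and 341 CPM of *Sox17* and 589.8 and 443 CPM of *Sox18*. With this mixed cluster left out, an alternative chosen after the data were seen, mural-like cells held 2.28 and 17.2 CPM of *Sox17* and 6.07 and 6.70 CPM of *Sox18*. The log2 differences of endothelial-like over mural-like cells then became 5.77 (SE 0.561, adjusted p = 4.26e-07) and 6.77 (SE 0.418, adjusted p = 2.68e-09). The *Sox6* difference, lower in endothelial-like cells, was -4.63 (adjusted p = 1.47e-06) without the mixed cluster and -4.05 (SE 0.507, adjusted p = 1.28e-05) with it.

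**Figure D2:**
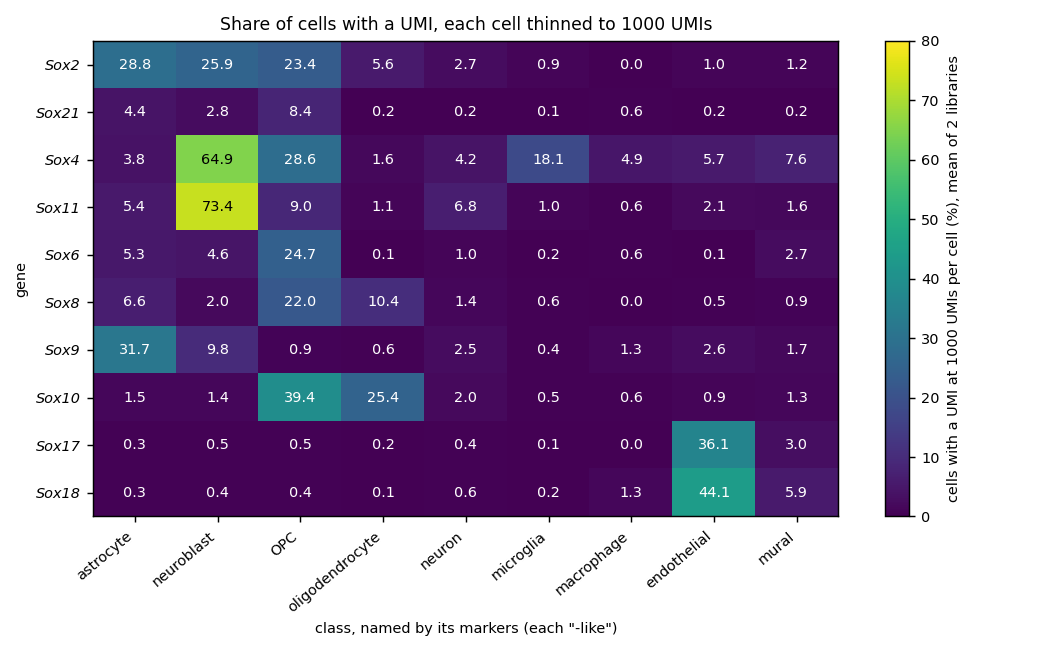
Share of cells with at least 1 UMI of each Sox gene (rows) in each class (columns) after every cell was thinned to 1000 UMIs, as the mean of the 2 libraries in percent. Each row has its highest share in the class with its highest CPM, from 8.35% for *Sox21* in OPC-like cells to 73.4% for *Sox11* in the neuroblast-like cells, and *Sox4* in microglia-like cells (18.1%) stands apart from the low values of that column.

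A set of 5 comparisons between related classes placed the members beside all genes. In oligodendrocyte-like over OPC-like cells, 0 of the 10 members were higher and 5 lower, where 28.6% and 23.0% of all genes tested were. The lower members were *Sox6* (log2 -6.59, SE 0.339, adjusted p = 1.86e-10), *Sox21* (-4.99), *Sox4* (-4.06), *Sox11* (-2.51) and *Sox2* (-1.64). The median change of the members was -1.34, against 0.07 over all genes. Without TMM 8 members were called.

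In astrocyte-like over OPC-like cells, 2 members were higher and 4 lower, against 20.9% and 24.1% of all genes. *Sox9* was 59.2-fold higher (log2 5.89, SE 0.404, adjusted p = 8.21e-09) and *Sox10* 45.8-fold lower (log2 -5.52, SE 0.348, adjusted p = 3.69e-09). *Sox4* (-3.25), *Sox6* (-1.89) and *Sox8* (-1.57) were lower and *Sox2* (0.64) higher. The median over the members was -0.40, beside -0.03 over all genes.

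In neuroblast-like over astrocyte-like cells, 2 members were higher and 2 lower, against 27.8% and 26.9% of all genes. *Sox4* rose 34.3-fold (log2 5.10, SE 0.200, adjusted p = 9.90e-11) and *Sox11* 30.2-fold (log2 4.92, SE 0.401, adjusted p = 3.09e-08). *Sox8* (-1.71, adjusted p = 6.36e-05) and *Sox9* (-1.96) fell. The median over the members was -0.14, and that over all genes 0.02. With no filter on low genes 8 members were called, and at a clustering resolution of 0.32 there were 7. That resolution compared other cells, since it left 1586 of the astrocyte-like cells, a cluster of low depth, without a name and kept 599, and put 450 cycling cells out of the neuroblast-like class.

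In neuroblast-like over neuron-like cells, 6 members were higher and 0 lower, against 28.3% and 25.0% of all genes. *Sox4* (log2 5.15), *Sox11* (5.05), *Sox21* (3.88), *Sox2* (3.78), *Sox9* (2.69) and *Sox6* (1.98, SE 0.368, adjusted p = 0.000242) were higher in the neuroblast-like class. That class included 446 cycling progenitor-like and 152 ependymal-like cells, described below. Its other cells held 9.23 and 9.20 CPM of *Sox21* and 68.7 and 51.8 CPM of *Sox9*. The median over the members was 2.34, against 0.05 over all genes. The neuron-like class had a median of 2541 UMIs per cell, and when cells of under 20% mitochondrial UMIs were clustered again it took in 714 astrocyte-like, 345 oligodendrocyte-like and 186 OPC-like cells, and the *Sox6* difference changed sign (log2 -0.72). With the same filter and the classes first found, *Sox6* was called again (adjusted p = 0.000298). The *Sox21* call was lost at a clustering resolution of 0.32 (adjusted p = 0.0867), where the neuroblast-like class lacked the cycling cells and the neuron-like class took in 107 astrocyte-like cells.

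In endothelial-like over mural-like cells, 2 members were higher and 1 lower, against 14.8% and 11.9% of all genes. They were *Sox17*, *Sox18* and *Sox6*, with the values given above. The median over the members was 0.17, and over all genes 0.13.

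Oligodendrocytes mature from OPCs through a committed precursor that expresses *Gpr17* and *Enpp6*. Clustering at a finer resolution separated 186 committed precursor-like cells (99 and 87) from 643 OPC-like cells and 2222 mature oligodendrocyte-like cells. Along this path OPC-like means these 643 cells, whereas the OPC-like class above held the committed cells as well. In committed over OPC-like cells, 3 of 10 members were higher and 3 lower, against 15.0% and 16.5% of 14516 genes tested. In committed over mature oligodendrocyte-like cells, 6 were higher and 0 lower, against 17.8% and 19.4%. In counts simulated for this last pair, TMM shifted the fitted changes by a median of -0.19 and gave 68 false calls among 14621 genes, whereas library sizes alone gave 0. Those counts gave both classes the mature profile apart from the changed genes, so library sizes were correct there by construction. The check therefore cannot decide which scaling holds for the data, where the profiles of the classes differed. Without TMM the 6 members were called here as well, and 9 in all. The median changes were 0.29 and 1.83, beside -0.05 and -0.07 over all genes.

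The members left the path at different points. *Sox4* was at 329 and 388 CPM in OPC-like cells, 840.0 and 939 CPM in committed cells and 23.9 and 14.3 CPM in mature cells, so that it stood highest in the middle stage. On the fitted scale the rise was 2.96-fold (log2 1.57, SE 0.234, adjusted p = 9.44e-06). The mature cells were 33.3-fold below the committed ones on that scale (log2 difference 5.06, SE 0.269, adjusted p = 1.64e-13). *Sox2* moved the same way on a smaller scale, from 311 and 305 CPM to 417 and 383 CPM and then to 58.2 and 65.3 CPM. Its first step (log2 0.64, SE 0.226, adjusted p = 0.0323) was lost with DESeq2, without TMM, without the block and at 1000 UMIs (adjusted p up to 0.879), and its second held in each of these (log2 2.19, adjusted p = 2.34e-08).

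*Sox11* and *Sox21* had fallen already in the committed cells. *Sox11* was at 141 and 166 CPM in OPC-like and 35.4 and 24.8 CPM in committed cells (log2 -2.09, SE 0.399, adjusted p = 0.000214), and mature cells held 14.2 and 8.44 CPM. *Sox4* and *Sox11*, of the same group, thus moved in opposite directions at this step. *Sox21* was at 93.4 and 102 CPM, then 28.5 and 39.2 CPM (log2 -1.26, SE 0.273, adjusted p = 0.000841), then 0.965 and 1.06 CPM. *Sox9* was low throughout, at 18.7 and 12.02 CPM in OPC-like and 3.08 and 1.03 CPM in committed cells (log2 -2.11, SE 0.725, adjusted p = 0.0278), a call lost at 1000 UMIs.

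*Sox6* was still present at the committed stage and then almost gone. It was at 293 and 291 CPM in OPC-like, 266 and 213 CPM in committed and 1.71 and 0.851 CPM in mature cells. The first step did not pass the test (log2 -0.02, SE 0.237, adjusted p = 0.995). On the fitted scale the mature cells were 89.3-fold lower than the committed ones (log2 difference 6.48, SE 0.324, adjusted p = 4.82e-14). *Sox10* was at 529 and 572, 555 and 609.9, and 282 and 368 CPM in the 3 stages, and neither step passed on the TMM scale (adjusted p = 0.361 and 0.347). *Sox8* was at 361 and 224, 324 and 240.4, and 103 and 135 CPM. Its second step passed (log2 0.72, SE 0.228, adjusted p = 0.0142) but not with DESeq2 (adjusted p = 0.165).

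*Sox18* was also called higher in committed cells than in OPC-like (log2 1.72, adjusted p = 0.0462) and mature cells (log2 1.94, adjusted p = 0.00558), but at 13.1 and 1.03 CPM, in replicate 1 mainly. Neither call held at 1000 UMIs, and that over OPC-like cells was also lost with DESeq2, without TMM and without the block. *Sox17* stood at 11.5 CPM in replicate 1 and at 0 of 969076 UMIs in replicate 2, which allows up to 3.10 CPM. *Fli1* (log2 1.56, adjusted p = 0.00752) and *Ets1* (log2 1.88, adjusted p = 0.0112), endothelial genes of the partner list, were also higher than in mature cells, and over OPC-like cells they did not pass the test, with adjusted p of 0.648 and 0.856. The part of vessel RNA in these values was not tested.

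**Figure D3:**
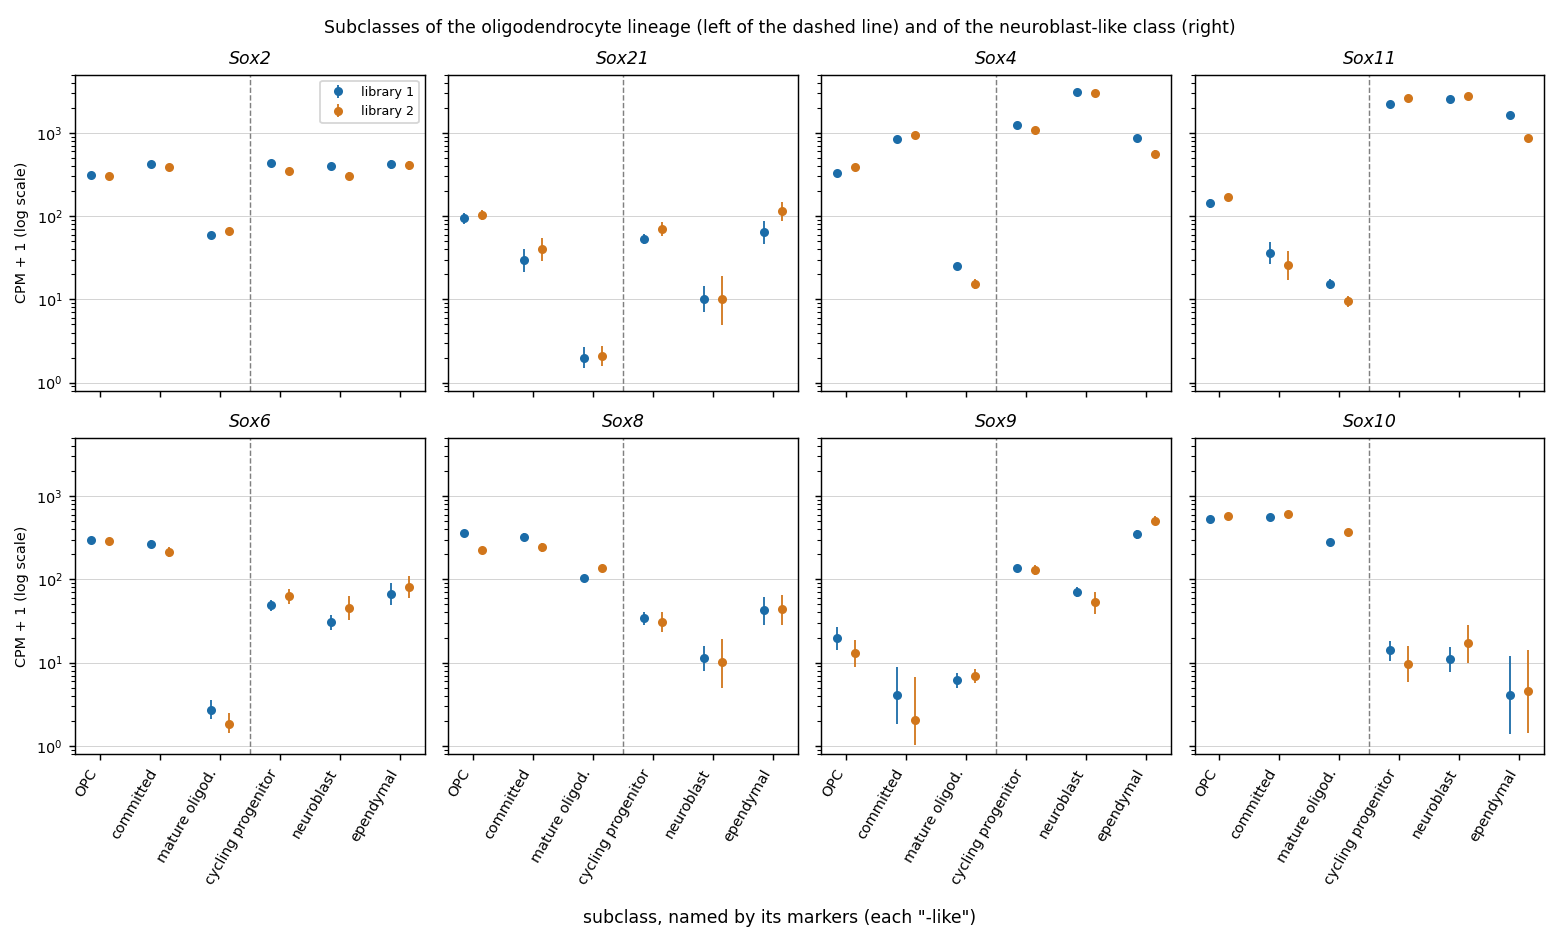
Levels of 8 Sox genes in subclasses of the oligodendrocyte lineage (left of the dashed line) and of the neuroblast-like class (right). The y axis is CPM + 1 on a log scale, and each point is 1 library with its exact Poisson 95% interval. *Sox4* peaks in the committed precursor-like cells, *Sox6* and *Sox21* are near the bottom of the scale in mature oligodendrocyte-like cells, and *Sox10* varies least along that path.

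At the finer resolution the neuroblast-like class was split into 446 cycling progenitor-like cells, defined by *Mki67* and *Top2a*, 1071 other neuroblast-like cells and 152 ependymal-like cells, the ciliated cells of the ventricle wall. In cycling over other neuroblast-like cells, 3 members were higher and 1 lower, against 14.9% and 14.0% of all genes, with a median of 0.68 over the members and -0.02 over all genes. *Sox21* was at 51.8 and 69.4 CPM in cycling and 9.23 and 9.20 CPM in other neuroblast-like cells (log2 2.50, SE 0.314, adjusted p = 1.05e-06). *Sox9* was at 136 and 129 against 68.7 and 51.8 CPM (log2 1.07, SE 0.321, adjusted p = 0.0130, and 0.110 with DESeq2), and *Sox8* at 33.2 and 30.0 against 10.3 and 9.20 CPM (log2 1.64, adjusted p = 0.000965, and 0.0884 at 1000 UMIs). *Sox4* went the other way, from 1244 and 1092 CPM in cycling to 3055 and 3033 CPM in the other neuroblast-like cells (log2 -1.39, SE 0.228, adjusted p = 4.23e-05).

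*Sox11* and *Sox2* did not pass the test at this step. *Sox11* was at 2192 and 2638 CPM in cycling and 2560.0 and 2785 CPM in other neuroblast-like cells (log2 -0.14, SE 0.303, adjusted p = 0.798), and *Sox2* at 432 and 343 against 399.7 and 302 CPM (log2 0.14, SE 0.223, adjusted p = 0.694). The sums of the ependymal-like cells held both astrocyte and neuroblast members. They held 347 and 505 CPM of *Sox9*, 417 and 405 CPM of *Sox2* and 63.2 and 113 CPM of *Sox21*, and also 870.3 and 550.4 CPM of *Sox4* and 1649.7 and 856 CPM of *Sox11*. No comparison was fitted on these 152 cells. Whether the same cells held both sets, and the part of neuroblast RNA in these sums, was not tested.

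Among mural-like cells, smooth muscle-like (115 cells, with *Acta2* and *Myh11*) were compared with pericyte-like cells (319), and 1 member was higher and 1 lower, against 9.67% and 6.94% of all genes, with a median of -1.28 over the members and -0.03 over all genes. That median rests largely on genes at low levels, since *Sox2*, *Sox21*, *Sox8*, *Sox9* and *Sox10* did not exceed a mean of 18.6 CPM in either subclass. Median depths were 9436 UMIs in smooth muscle-like and 2127 in pericyte-like cells. *Sox6* was at 73.6 and 77.4 CPM in smooth muscle-like and 13.6 and 25.2 CPM in pericyte-like cells (log2 2.31, SE 0.486, adjusted p = 0.00108). *Sox4* was lower, at 38.4 and 34.2 against 132 and 84.0 CPM (log2 -1.23, SE 0.367, adjusted p = 0.0202). Neither call held at 1000 UMIs (adjusted p = 0.377 for *Sox6*), where 0 members were called, and the *Sox4* call was also lost without the block and with doublets kept. *Sox17* was at 32.4 CPM in the smooth muscle-like cells of replicate 2 and 3.20 CPM in those of replicate 1.

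*Sox17* and *Sox18* take part in the making of arteries, so the endothelial-like cells were clustered by themselves, an alternative chosen after the data were seen. This gave 146 arterial-like, 117 venous-like and 1139 other endothelial-like cells, with median depths of 5833, 5805 and 2294 UMIs. Of the 10 members, 5 passed the filter on low genes among the 7724 genes tested. In arterial-like over other cells, 4 of them were higher and 0 lower, against 4.38% and 3.73% of all genes. *Sox11*, 1 of the 4, passed the filter only through its arterial-like sums, so its place in that count adds no weight. *Sox17* was at 954 and 877 CPM in arterial-like, 447 and 414 CPM in other and 386 and 347 CPM in venous-like cells, and the arterial-like cells were 2.09-fold above the others (log2 1.06, SE 0.112, adjusted p = 9.04e-06), with libraries far apart. This call held with DESeq2, without TMM, without the library block and with another kernel of the numerical library in the clustering.

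*Sox18* was at 1290.0 and 669 CPM in arterial-like, 841 and 506 CPM in other and 583 and 465 CPM in venous-like cells. Its libraries overlapped between arterial-like and other cells, and the difference rested on the change within each library (log2 0.50, SE 0.135, adjusted p = 0.0289, but 0.717 without the library block and 0.0591 with DESeq2). *Sox11* was at 109 and 22.2 against 31.5 and 9.16 CPM (log2 1.58, adjusted p = 0.000374) and *Sox4* at 154 and 83.3 against 71.1 and 66.6 CPM (log2 0.79, adjusted p = 0.0130). Both were lost with DESeq2 and without the block.

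RNA of other cell types differed between these subclasses. The other endothelial-like cells included shallow clusters led by astrocyte and neuron genes, and the 6 oligodendrocyte markers summed to 3034 and 1067 CPM in them against 1246 and 399.8 CPM in arterial-like cells, with 6 of 6 lower in both libraries. *Olig1* was at 108 and 26.9 against 31.7 and 11.1 CPM (log2 -1.62, adjusted p = 0.00123). A deeper cluster of the other cells was led by hemoglobin genes. The 5 erythroid markers summed to 12364 and 48.3 CPM in the other cells against 143 and 913 CPM in arterial-like cells. The 7 mural markers summed to 749 and 855 against 222 and 405 CPM, with 4 of 7 lower and 1 higher in both libraries of the arterial-like cells. The arterial-like cells held more of the neuroblast markers, 1389.8 and 997 CPM over 7 genes against 831 and 465 CPM, with 6 of 7 higher in both libraries. Their leading genes included *Meg3*, a neuronal gene, and *Stmn2*, which was also on the arterial list. Without *Stmn2* the sums were 1035 and 622 against 773 and 440.4 CPM, and 5 of 6 were higher. Most of each neuroblast sum was *Stmn1*. It was at 816 and 564 CPM in arterial-like, 725 and 417 CPM in other and 807 and 478 CPM in venous-like cells. The 8 neuron markers summed to 613 and 106 against 218 and 109 CPM, a difference seen in replicate 1, with 4 of 8 higher and 2 lower in both. Of these sums, *Meg3* alone held 431 and 44.4 CPM in arterial-like and 41.4 and 26.9 CPM in other cells. It made up most of the replicate 1 difference. *Tubb3*, a neuronal tubulin, was at 77.7 and 11.1 against 49.1 and 11.6 CPM, highest in the library where *Sox11* was highest. Its difference did not pass the test (log2 0.51, adjusted p = 0.324). None of these oligodendrocyte, neuroblast and neuron markers was at 0 in both libraries of the arterial-like or of the other cells. In venous-like cells 2 of the 7 neuroblast markers were. The part of neuronal RNA in the *Sox11* and *Sox4* values was not tested.

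With the other cells limited to the 622 of clusters with a median of at least 2000 UMIs and at least 20 cells in each library, an alternative chosen after the data were seen, the 6 oligodendrocyte markers summed to 1188 and 583 CPM in them. The erythroid markers still summed to 10007 and 44.7 CPM in them, and the mural markers to 793 and 910 CPM. *Sox17* was still called (log2 0.97, SE 0.115, adjusted p = 2.63e-06), as was *Sox4* (log2 0.80, adjusted p = 0.00974), and *Sox18* was not (log2 0.37, adjusted p = 0.101). *Sox11* was also called (log2 1.71, adjusted p = 5.91e-05). It was at 28.1 and 8.65 CPM in these deeper other cells. The limit given above, that it passed the filter only through its arterial-like sums, holds here, so this call adds no weight. The neuroblast markers summed to 665 and 439 CPM in these others, and 6 of 7 were again higher in the arterial-like cells of both libraries. *Tubb3* was at 30.4 and 10.1 CPM in these others and was now called higher in arterial-like cells (log2 1.06, adjusted p = 0.0222).

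In venous-like over other cells 0 members were higher and 0 lower by edgeR, against 2.05% and 2.52% of all genes, and 4 were at an unadjusted p under 0.05. DESeq2 and the fit without the block also called 0, without TMM 2 were called, *Sox9* and *Sox11*, and with another kernel of the numerical library 1 was, *Sox9*. *Sox11* was at 9.85 and 2.15 CPM in venous-like cells (log2 -1.49, SE 0.415, adjusted p = 0.0548). *Sox9* was at 53.2 and 51.7 CPM in venous-like and 19.0 and 2.78 CPM in arterial-like cells, and neither subclass passed the test against the other cells (adjusted p = 0.0768 and 0.259).

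**Figure D4:**
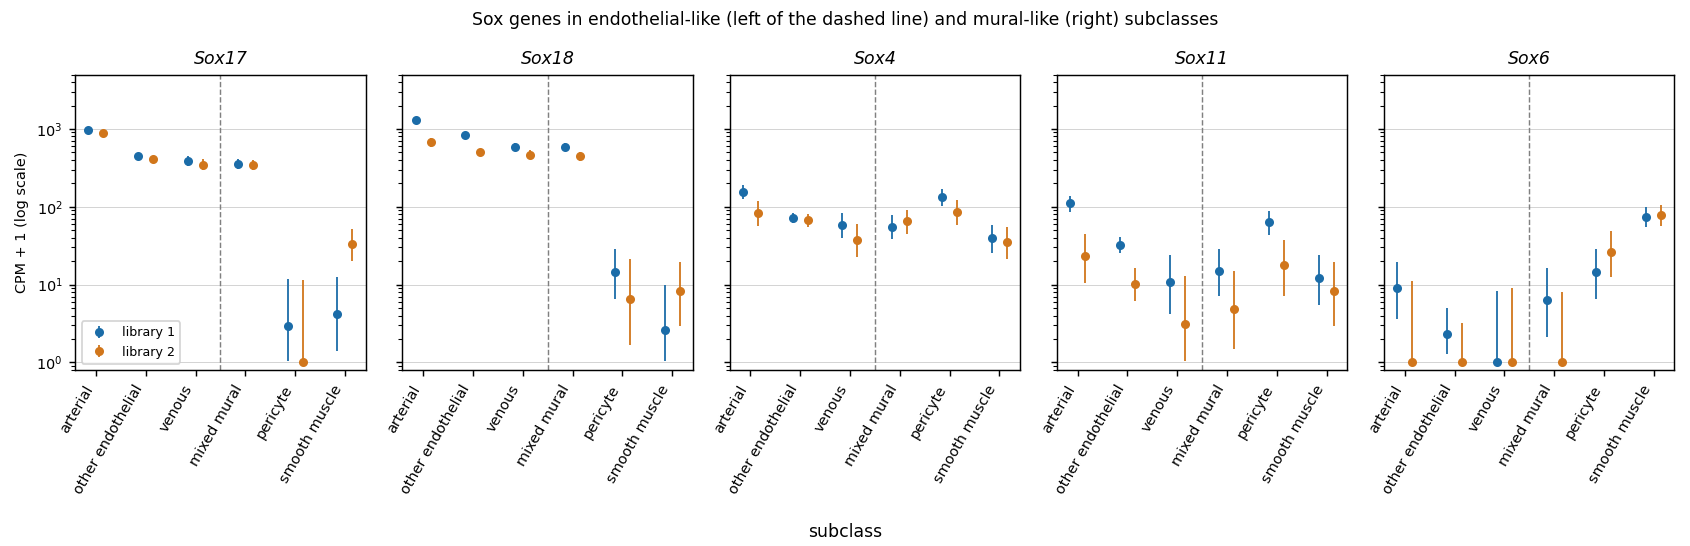
Levels of 5 Sox genes in endothelial-like subclasses (left of the dashed line) and mural-like subclasses (right). The y axis is CPM + 1 on a log scale, and each point is 1 library with its exact Poisson 95% interval. *Sox17* and *Sox18* are high in all 3 endothelial-like subclasses and in the mixed mural cluster and low in pericyte-like and smooth muscle-like cells, and *Sox6* is highest in smooth muscle-like cells.

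The study centred on astrocytes with and without *Crym*, which encodes mu-crystallin, a protein that binds thyroid hormone. Astrocyte-like cells with a natural log value of *Crym* above 0.25 (504 and 435 cells) were compared with the rest (812 and 543 cells). Of the 7 members detected in at least 10% of either group, 0 were called by edgeR, against 5.18% of 6059 genes in either direction, and at an unadjusted p under 0.05 there were 2, *Sox8* and *Sox11*. DESeq2 and the other alternatives also called 0. The share of all genes called was less settled, at 7.31% with another kernel of the numerical library and from 0.0330% without the library block to 14.1% of 1528 genes at 1000 UMIs. *Sox9* was at 420.0 and 719.6 CPM in *Crym*-positive and 372 and 633 CPM in *Crym*-negative cells (log2 0.16, SE 0.0804, adjusted p = 0.277), and *Sox2* at 438 and 450.5 against 375 and 418 CPM (log2 0.14, SE 0.0840, adjusted p = 0.350). The largest changes were those of *Sox8*, 70.7 and 68.6 against 78.1 and 89.5 CPM (log2 -0.29, SE 0.121, adjusted p = 0.184), and *Sox11* (log2 0.28, SE 0.124, adjusted p = 0.204). The groups differed in depth, with medians of 2443 and 5218 UMIs in *Crym*-positive and 1467 and 1963 in *Crym*-negative cells. *Olig1*, an oligodendrocyte-lineage factor, was lower in *Crym*-positive cells (76.7 against 139 CPM, adjusted p = 0.000330), and its part in the *Sox8* values was not tested.

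Within a class, members varied between fine clusters, which differed in depth, mitochondrial share and leading genes. Of 3 astrocyte-like fine clusters, that with a median of 8287 UMIs held 523 and 794 CPM of *Sox9* and 514 and 491 CPM of *Sox2*. The cluster with 1909.5 UMIs and a median mitochondrial share of 11.0% held 228 and 390.2 CPM of *Sox9* and 281 and 297 CPM of *Sox2*, and that with 1279 UMIs held 266 and 608 CPM of *Sox9* and 279 and 396 CPM of *Sox2*. *Sox6* was at 49.4 and 53.2, 96.7 and 92.5, and 22.8 and 23.9 CPM in the same clusters, and so did not follow depth. The cluster with 1909.5 UMIs was led by *Agt* and *Slc6a11*, whereas *Crym* was among the leading genes of the other astrocyte-like clusters. The parts of depth and of astrocyte type in these values were not tested. Of the 2 OPC-like fine clusters, that with 8319 UMIs held 549 and 588 CPM of *Sox10* and 279 and 289 CPM of *Sox6*. The cluster with 1916 UMIs and 9.78% mitochondrial UMIs held 374 and 408 CPM of *Sox10* and 392 and 315 CPM of *Sox6*. In the 4 mature oligodendrocyte-like fine clusters *Sox10* ran from 209 to 402 CPM over all libraries and *Sox8* from 73.2 to 162 CPM.

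Pairs of members were counted in the same cells of a subclass after thinning to 1000 UMIs. In the neuroblast-like cells that were neither cycling nor ependymal-like, among those with a *Sox4* UMI, 82.7% and 84.6% also had a *Sox11* UMI, against 64.2% and 75.6% of those without. In cycling progenitor-like cells the shares were 79.5% and 90.9% against 66.7% and 62.1%. In endothelial-like cells with a *Sox17* UMI, 58.3% and 40.3% had a *Sox18* UMI, against 44.8% and 37.9% of those without. In astrocyte-like cells with a *Sox2* UMI, 32.4% and 45.5% had a *Sox9* UMI, against 24.9% and 33.0%. These 4 differences had the same direction in both libraries. In OPC-like cells, by contrast, *Sox10* was found in 38.6% and 36.5% of cells with a *Sox8* UMI and in 36.4% and 40.2% of those without. *Sox10* was seen in 4 of 260 (1.54%) and 7 of 320 (2.19%) astrocyte-like cells with a *Sox9* UMI, against 1.14% and 1.45% of those without. Such shares rest on a few UMIs per gene and cell, and no test was made on cells. They also pool fine clusters whose levels differed, as given above for *Sox2* and *Sox9* in astrocyte-like cells. Pairs within a fine cluster were not tested.

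Of the other Sox genes and *Sry*, 10 in all, 6 passed the filter on low genes in the class fit. *Sox1*, of the same group as *Sox2*, was at 159 CPM in neuroblast-like and 91.7 CPM in astrocyte-like cells (means of the 2 libraries) and 4.66 CPM in OPC-like cells. *Sox3*, the other gene of that group, was at 74.8 CPM in OPC-like and 3.20 CPM in astrocyte-like cells, so that the B1 genes split between these classes while *Sox2* was in both. *Sox5*, the partner of *Sox6* in group D, was at 124 CPM in OPC-like, 66.2 in astrocyte-like, 64.9 in neuroblast-like, 61.3 in mural-like and 1.65 in endothelial-like cells. *Sox13*, also of group D, was at 61.4 CPM in endothelial-like cells. By edgeR it was called higher in arterial-like than in other endothelial-like cells (log2 0.64, adjusted p = 0.0494), but not against the deeper clusters only (adjusted p = 0.0867). *Sox7* was at 48.4 CPM in arterial-like, 46.9 in other and 59.1 in venous-like cells. Neither subclass passed the test for *Sox7* against the other cells (adjusted p = 0.940 and 0.580). In oligodendrocyte-like over OPC-like cells 0 of these 6 were higher and 3 lower, with *Sox3* at log2 -5.96, *Sox5* at -4.89 and *Sox13* at -2.20. In neuroblast-like over neuron-like cells 4 were higher and 0 lower. *Sox14* and *Sry* had 0 CPM in every class, and *Sox15* and *Sox30* did not exceed a mean of 1.23 CPM in any. *Sox2ot*, which spans *Sox2*, did not follow it. It was at 498 CPM in oligodendrocyte-like cells, where *Sox2* was at 61.8 CPM, and 87.9 CPM in astrocyte-like cells, where *Sox2* was at 422 CPM.

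The 28 partner and target genes were counted in the same comparisons, beside the shares of all genes called higher and lower. In oligodendrocyte-like over OPC-like cells 6 rose and 10 fell, against 28.6% and 23.0% of all genes, with a median of -0.34. The myelin regulator *Myrf* (log2 2.45) and *Nkx6-2* (4.38) rose and *Hes5* (-4.60) and *Olig2* (-1.50) fell. In astrocyte-like over OPC-like cells 10 rose and 8 fell (against 20.9% and 24.1% of all genes), with *Pax6* at 4.46 and *Pou3f2*, the partner of *Sox2*, at 1.64 among the former and *Olig2* at -4.55 among the latter. In neuroblast-like over astrocyte-like cells 13 rose and 5 fell (against 27.8% and 26.9% of all genes), *Insm1* (5.68) and *Tubb3* (5.05) among those that rose. In endothelial-like over mural-like cells 8 rose and 2 fell (against 14.8% and 11.9% of all genes), with the flow-responsive *Klf2* at 2.14, *Gata2* at 2.15 and *Erg* at 1.38. In committed over OPC-like cells 5 rose and 12 fell (against 15.0% and 16.5% of all genes), with *Myrf* at 3.66 and *Hes5* at -5.67.

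The genes whose class pattern was most like that of each member were found by Pearson's r of log2(CPM + 5) over 18 sums, 9 classes in 2 libraries, among 10904 genes at 20 CPM or more in some class. These points share cells, depth and clustering, in which most of the genes listed took part, so the values are a description. *Sox17* was most like *Sox18* (r of 0.996) and then *Atp10a* (0.995), and *Sox18* was most like *Atp10a* (0.997) and then *Sox17* (0.996). *Sox10* was most like *Gjc3* (0.989) and *Enpp6* (0.985), both of oligodendrocytes, and *Sox6* most like *Sox5* (0.964). *Sox11* was most like *Cacng5* (0.969), *Sox21* like *Fabp7* (0.968), *Sox2* like *Diaph3* (0.970), *Sox8* like *Phyhipl* (0.977), *Sox9* like *Fezf2* (0.963) and *Sox4* like *Dhx8* (0.937).

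Members of the same group did not always share a pattern. Over the 237 coding bases of the HMG box, the 5 pairs within a group were identical at 81.4% to 89.5% of bases, and the 40 other pairs at 53.2% to 87.8%. *Sox17* and *Sox18* (82.3% identical) had r = 0.996 over the same 18 sums, *Sox8* and *Sox10* (81.4%) 0.823 and *Sox4* and *Sox11* (89.5%) 0.785. *Sox9* and *Sox10*, at 83.1%, had r = -0.34, and *Sox8* and *Sox9*, at 85.2%, had 0.18. *Sox2* and *Sox21* (87.8%) had 0.899. Among the 40 pairs of different groups r ran from -0.43 to 0.899, with a median of 0.23.

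**Figure D5:**
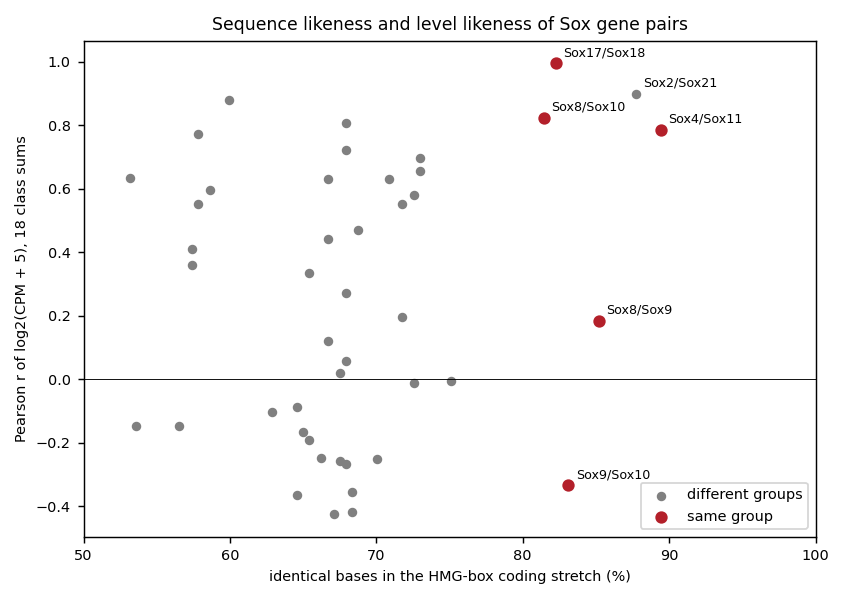
Each point is 1 of 45 pairs of Sox genes, with identical bases in the HMG-box coding stretch (x axis, percent) against Pearson's r of log2(CPM + 5) over 18 class sums (y axis). Pairs of the same group are red, and pairs over 80% identical are named. *Sox17*/*Sox18* lie at the top with r = 0.996 and *Sox9*/*Sox10* below 0 with r = -0.34, at almost the same identity.

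Promoter sequence was looked at for the group C genes, which moved together between the neuroblast-like and astrocyte-like classes and apart in committed precursor-like cells. The 250 bases before the start of each are from the RefSeq annotation of GRCm38.p6, given on the strand of the gene, with capitals at the matches to the motifs searched.
*Sox4* (chr13:28953700-28953949, minus strand): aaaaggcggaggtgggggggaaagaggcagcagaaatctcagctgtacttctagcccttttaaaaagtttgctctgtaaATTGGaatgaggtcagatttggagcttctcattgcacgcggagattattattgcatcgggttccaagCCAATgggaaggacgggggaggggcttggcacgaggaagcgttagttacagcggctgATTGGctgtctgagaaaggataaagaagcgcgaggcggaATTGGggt
*Sox11* (chr12:27342719-27342968, minus strand): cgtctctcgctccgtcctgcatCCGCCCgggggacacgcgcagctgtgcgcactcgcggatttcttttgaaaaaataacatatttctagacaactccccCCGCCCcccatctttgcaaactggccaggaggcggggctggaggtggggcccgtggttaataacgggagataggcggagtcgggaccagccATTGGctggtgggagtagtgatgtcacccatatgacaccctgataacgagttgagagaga
The motifs, searched on both strands, were the TATA box (TATAAA, in 12.4% of 32851 promoters of the same length), the CCAAT box (CCAAT, in 33.8%), the GC box (GGGCGG, in 32.7%), the E-box (CACGTG, in 6.02%), the core bound by Sox factors (ACAAT, in 27.7%) and an octamer core (ATGCAAA, in 4.12%). *Sox4* had 4 matches to the CCAAT box and 0 to the others. *Sox11* had 1 to the CCAAT box and 2 to the GC box. Promoters were found for 6 of the 10 members, 11 in all since *Sox6* has 6, and *Sox9*, *Sox10*, *Sox17* and *Sox18* had none in the table. Of those 11, 5 held the CCAAT box, 4 the GC box, 3 the Sox core and 1 each the TATA box, the E-box and the octamer core. A match describes the letters in this window and says nothing of a factor at work there.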

How the data were processed

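Single cells of the striatum were captured on the 10x Genomics platform with 3′ kits, and the authors aligned reads to mm10 and counted UMIs with Cell Ranger. The labels and the matrix headers gave version 4.0, whereas the study's methods gave another. The deposited values were whole-number UMI counts per gene and barcode, not normalized, in 1 matrix per library. Sample groups came from the labels, which named 2 replicates of 1 group.

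From these counts, barcodes with at least 300 detected genes were kept and predicted doublets removed with Scrublet (scanpy 1.11.5, rate 6%). Cells were log-normalized to a total of 10000, integrated across libraries and clustered with Seurat 5.3.0 (2000 variable genes, 30 components, resolution 0.08 for classes and 1 for subclasses). All Sox genes, the partner list and *Crym* were left out of the clustering. Clusters were named from fixed markers, of which at least 3 had to be raised 2-fold. Counts were summed per library and class and tested with edgeR 4.0.16 (quasi-likelihood, TMM, library as a block, prior count 2, Benjamini-Hochberg over all genes tested, threshold 0.05). The library block pairs classes that came from the same cell suspension. SEs were the absolute log2 change divided by the square root of the F statistic. Shares were also taken with each cell thinned to 1000 or 2000 UMIs, which left out 1494 and 3652 shallower cells. Confidence intervals were exact at 95%, and a count of 0 was given a limit of 3 counts. These cover counting error only.

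The 10 members, the partner list, the markers and the comparisons were chosen with earlier results of these data known. All members are described. Other genes were named from those lists or the other Sox genes, whether or not they passed the test. Further genes were named where they led a cluster, overlapped a member or were among the 3 most like a member. Alternatives were DESeq2 1.42.0, no TMM, no block, other filters on cells and genes, doublets kept, thinning, another resolution, another kernel of the numerical library and each library left out. The statistics were tested on simulated sums with 200 changed genes per comparison. With TMM, false calls numbered 1 to 9 per comparison, except for 68 in committed over mature oligodendrocyte-like cells, where the median error was log2 -0.19. Without TMM that pair gave 0. The changed genes found again with TMM ran from 61 of 197 in smooth muscle-like over pericyte-like cells to 189 of 200 for *Crym*. In committed over mature oligodendrocyte-like cells they were 103 of 199. A step that did not pass the test is therefore not shown to be without a difference. Both classes of a simulated pair had the same profile apart from the changed genes, so these checks cannot judge the scaling of classes whose profiles differ.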

Additional observations from a re-analysis of the deposited data

How the results depend on the processing

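Of 46 calls of a member in a comparison, 29 kept their side of the threshold in every alternative run for them. The endothelial subclasses, their deeper clusters only, the mural-like class without its mixed cluster, the other kernel, and the cell filters with the classes first found were alternatives chosen after seeing the data. The clustering depends on the kernel setting of the numerical library it runs on. With another kernel, 179 arterial-like and 161 venous-like cells were named in place of 146 and 117, venous-like over other endothelial-like cells gave 1 member called, and 443 genes were called for *Crym* in place of 314. That count of genes was 51 with DESeq2, 126 without TMM, 2 without the block, 199 with doublets kept, 561 at 500 detected genes and 128 under 20% mitochondrial UMIs. Where it is not given in the report, the cause of a change was not tested.

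Counts of members called moved past 1.5 times in these cases. Oligodendrocyte-like over OPC-like cells gave 8 and venous-like over other endothelial-like cells 2 without TMM. Neuroblast-like over astrocyte-like cells gave 8 with no filter on low genes and 7 at resolution 0.32, which compared fewer cells. Smooth muscle-like over pericyte-like cells gave 0 at 1000 UMIs, and arterial-like over other endothelial-like cells gave 1 with DESeq2. Both classes of a comparison came from the same suspensions, so the library was kept as a block, and without the replicate block the counts were 1 for smooth muscle-like and 1 for arterial-like cells.

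The order of the top classes was unsettled for some members. *Sox10* in OPC-like over oligodendrocyte-like cells changed sign, to log2 0.18 with DESeq2, 0.78 without TMM, 0.0741 at 1000 UMIs, 0.0574 with the mural-like class without its mixed cluster and 0.0077 with no gene filter. *Sox21* in OPC-like over astrocyte-like cells changed sign, to 0.30 without TMM, 0.28 with doublets kept, 0.27 at 500 detected genes, 0.13 under 20% mitochondrial UMIs and 0.58 at 1000 UMIs. *Sox8* in OPC-like over oligodendrocyte-like cells passed at 1.23 without TMM and 0.47 with no gene filter. *Sox2* in astrocyte-like over neuroblast-like cells passed at 0.72 at resolution 0.32 and 0.42 with no gene filter, and *Sox17* in endothelial-like over mural-like cells missed the threshold at 2.06 with DESeq2.

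With 1 library left out there is no test, and the log2 values ran from -0.21 to 0.19 for *Sox10*, 4.46 to 4.71 for *Sox11*, 2.04 to 2.54 for *Sox17*, 1.91 to 2.47 for *Sox18*, 0.07 to 0.51 for *Sox2*, -0.43 to 0.47 for *Sox21*, 1.70 to 2.03 for *Sox4*, 1.78 to 2.03 for *Sox6*, -0.11 to 1.00 for *Sox8* and 1.74 to 2.12 for *Sox9*.

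Shares of cells with a UMI in the top class depended on depth. At 1000 UMIs they were 28.8% for *Sox2*, 8.35% for *Sox21*, 64.9% for *Sox4*, 73.4% for *Sox11*, 24.7% for *Sox6*, 22.0% for *Sox8*, 31.7% for *Sox9*, 39.4% for *Sox10*, 36.1% for *Sox17* and 44.1% for *Sox18*. At 2000 UMIs they were 12.8% for *Sox21*, 79.96% for *Sox4*, 86.8% for *Sox11*, 41.0% for *Sox6*, 38.5% for *Sox8*, 65.6% for *Sox10*, 56.5% for *Sox17* and 67.9% for *Sox18*. With doublets kept they were 39.0% for *Sox21* and 71.0% for *Sox6*. Committed precursor-like cells were not separated with doublets kept or under the stricter cell filters, so no value could be given there.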

Other observations

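The smallest subclasses, on which no comparison was fitted, held members too. Fibroblast-like cells (56) held 27.9 and 83.1 CPM of *Sox9* and 196 and 60.5 CPM of *Sox4*. The neuroblast-like fine cluster with a median of 1176 UMIs held 22.9 and 24.0 CPM of *Sox9* and 252 and 239.9 CPM of *Sox2*, and that with 5889.5 UMIs held 80.9 and 58.3 CPM of *Sox9* and 439 and 317 CPM of *Sox2*.

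At 1000 UMIs, at least 1 of the 10 members was found in 91.6% and 92.7% of neuroblast-like cells, 84.6% and 81.0% of OPC-like cells, 68.5% and 66.3% of endothelial-like cells, 59.7% and 63.1% of astrocyte-like cells and 35.3% and 42.7% of oligodendrocyte-like cells. In microglia-like cells the shares were 24.9% and 18.1%, where a *Sox4* UMI was found in 20.7% and 15.5%, and in macrophage-like cells 10.3% and 6.85%.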
